A study of Drosophila melanogaster with 249 samples.

Results

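Df(1)ED6712 is an X-chromosome deficiency (Df) of the DrosDel collection, in which each chromosome lacks a defined stretch of neighbouring genes. A fly with this chromosome over a normal X is hemizygous for the missing genes: it has a single copy where a fly with normal X chromosomes has a pair. All libraries labelled Df(1)ED6712 were taken, 6 of the 193 libraries of Drosophila melanogaster heads that were analysed in the XX and tra2 XX groups. They were compared with every other analysed library of the same group. Each library held poly-A+ RNA from 10 pooled heads, dissected from adults at 5 d.

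Of the 6 libraries, 3 came from XX females of genotype Df(1)ED6712/w1118, daughters of Df(1)ED6712/FM7h mothers and w1118 fathers. The other 3 came from Df(1)ED6712/w1118 flies that also carried Df(2R)trix over tra2B on the second chromosome, and they were made by a longer set of crosses through balancer chromosomes. These flies have paired X chromosomes but develop as males, and they are written tra2 XX here. The reference was 94 XX libraries of 32 other lines. Of these libraries, 53 carried another X Df, 33 a Df on 3L, and 8 no Df (w1118, w+/w1118 and w+). In tra2 XX the reference was 93 libraries of 31 lines, with 54, 33 and 6 libraries of these kinds, all with Df(2R)trix/tra2B. By its groups and number of libraries, the line labelled w+ corresponds to OreR, a strain that the paper lists apart from w1118. The reference flies were collected at the same age. Df(1)ED6712 is a single chromosome in a single line, so an effect of the missing genes and an effect of anything else that this chromosome or stock carries cannot be told apart.

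Genes that are lost from 1 homologue usually give less RNA, and cells can offset part of the loss. X-linked genes in XY males are a special case, since the male-specific lethal complex with its roX RNAs raises the output of their lone X. The tra2 gene acts in the somatic sex pathway below the switch that sets this complex, so tra2 XX flies are male in body with the X dose of a female. In whole heads, fewer cells of a type and less RNA per cell cannot be told apart.

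The Df(1)ED6712 libraries held 18679735, 11087837 and 3765487 reads on genes in XX females and 5738984, 5155388 and 5887811 in tra2 XX. All 97 XX libraries held between 3089103 and 18679735 reads, and the 96 tra2 XX libraries between 667146 and 13306476. Replicate pairs of Df(1)ED6712 correlated across genes with a Spearman rho of 0.954 to 0.965 in XX females and 0.972 to 0.974 in tra2 XX. The labels held for the marker genes of the sexes. Yp1, a yolk protein gene of females, had 84890, 123815 and 159026 normalized read counts in Df(1)ED6712 XX females and 4.76, 5.69 and 0 in Df(1)ED6712 tra2 XX. The tra2 gene itself had 117, 133 and 70.2 normalized read counts in Df(1)ED6712 XX females and 46.4, 32.7 and 34.8 in Df(1)ED6712 tra2 XX. Normalized read counts are reads divided by the size factor of the library.

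A single stretch of the X was lowered in the Df(1)ED6712 libraries, and it was the same stretch in both groups. It ran from CG10804 to Rala and held 11 measured genes. In order, these were CG10804, CG10802, CG14270, CG10803, DIP-alpha, CG2875, AstA-R1, Parg, Mnt, lncRNA:CR45102 and Rala. For each gene, the 3 Df(1)ED6712 libraries were averaged and divided by the median level in the rest of their group. The ratio was taken for the 1493 X genes whose reference exceeded 6 normalized read counts in both groups. The stretch was the run of neighbouring genes with the best sum of scores, where genes under a log2 ratio of -0.5 add to the score and genes above it subtract. The members were the genes of the run located in both groups, so the low ratios of both groups entered the choice. The run located in either group alone held the same 11 genes. The ratios of each group could thus be read on the run of the other. The score of the run was 4.17 in XX females and 4.45 in tra2 XX. The next best runs held 2 genes each, with scores of 0.786 (obst-A and Peritrophin-A, XX females) and 1.00 (Yp2 and Yp1, tra2 XX).

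The median log2 ratio over the 11 genes was -0.87 in XX females, a ratio of 0.546. In tra2 XX it was -1.01, a ratio of 0.498. A pure loss of 1 of a pair of copies would give -1. By library the median was between -1.14 and -0.84 in XX females and between -1.26 and -0.85 in tra2 XX. The log2 ratio was under -1 for 4 of 11 genes in XX females and for 6 of 11 in tra2 XX. The share of other X genes under -1 was not computed. The 40 measured genes that flank the run, 20 on each side, had a median of 0.04 in XX females and -0.02 in tra2 XX. Outside the run, 3.24% of 1482 measured X genes had a log2 ratio under -0.5 in XX females and 1.55% in tra2 XX.

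**Figure D1:**
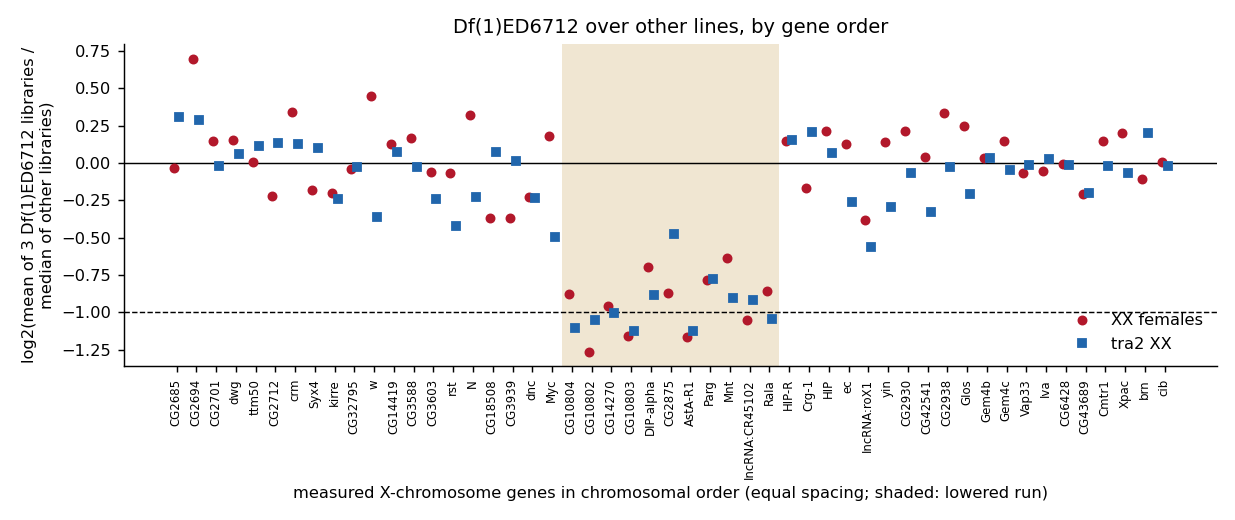
Log2 ratio of Df(1)ED6712 over the other lines (y axis) for measured X genes in chromosomal order (x axis, equal spacing), for XX females (circles) and tra2 XX (squares). The shaded 11 genes from CG10804 to Rala lie between -1.26 and -0.47 in the 2 groups, and the dashed line marks -1.

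None of the 3 measured genes on either side of the run passed in either group against all other lines. On the left, Myc, the growth-promoting transcription factor, had a log2 ratio of 0.18 in XX females and -0.497 in tra2 XX. The second value lies just above the -0.5 used for the score, so the left end of the run in tra2 XX was set narrowly. The member CG2875 had -0.475 in tra2 XX, also above -0.5, and stayed in the run because it lay between lower neighbours. The values of Myc lay within the range of the other lines. Its values were 271, 558 and 309 normalized read counts in Df(1)ED6712 XX females, where the other lines ranged from 73.7 to 857 with a median of 335. The tra2 XX libraries of Df(1)ED6712 had 146, 121 and 93.8, against 31.1 to 374 with a median of 170 in the other lines. Neither difference passed the test (edgeR, adjusted p = 0.993 and 1). The next genes out were dnc, the cAMP phosphodiesterase known from learning mutants, with -0.23 in XX females and -0.23 in tra2 XX, and CG3939 with -0.37 and 0.01. On the right, HIP-R and HIP, which encode partners of the Hsc70 chaperone, had log2 ratios of 0.15 and 0.21 in XX females and 0.15 and 0.07 in tra2 XX. Crg-1, a fork head gene, lay between them with -0.16 in XX females and 0.21 in tra2 XX.

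No other line had a median as low. Line medians of the same 11 genes lay between -0.46 (Df(1)ED6906) and 0.29 (Df(1)ED6957) in the 32 other XX lines. They lay between -0.24 (Df(3L)ED4543) and 0.33 (Df(1)ED14021) in the 31 other tra2 XX lines. Single libraries came closer. The 94 other XX libraries reached down to -0.78, still above all 3 Df(1)ED6712 libraries. In tra2 XX, replicate 1 of Df(3L)ED4475 stood at -1.08, inside the range of Df(1)ED6712, while the mean of its line gave -0.06. The mean of the Df(1)ED6712 line was below that of every other line for 7 of 11 genes in XX females and for 9 of 11 in tra2 XX. Over all 10423 genes tested this held for 2.25% in XX females and 1.07% in tra2 XX. The 11 genes were chosen for low ratios in the Df(1)ED6712 libraries, so these shares are no independent comparison.

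**Figure D2:**
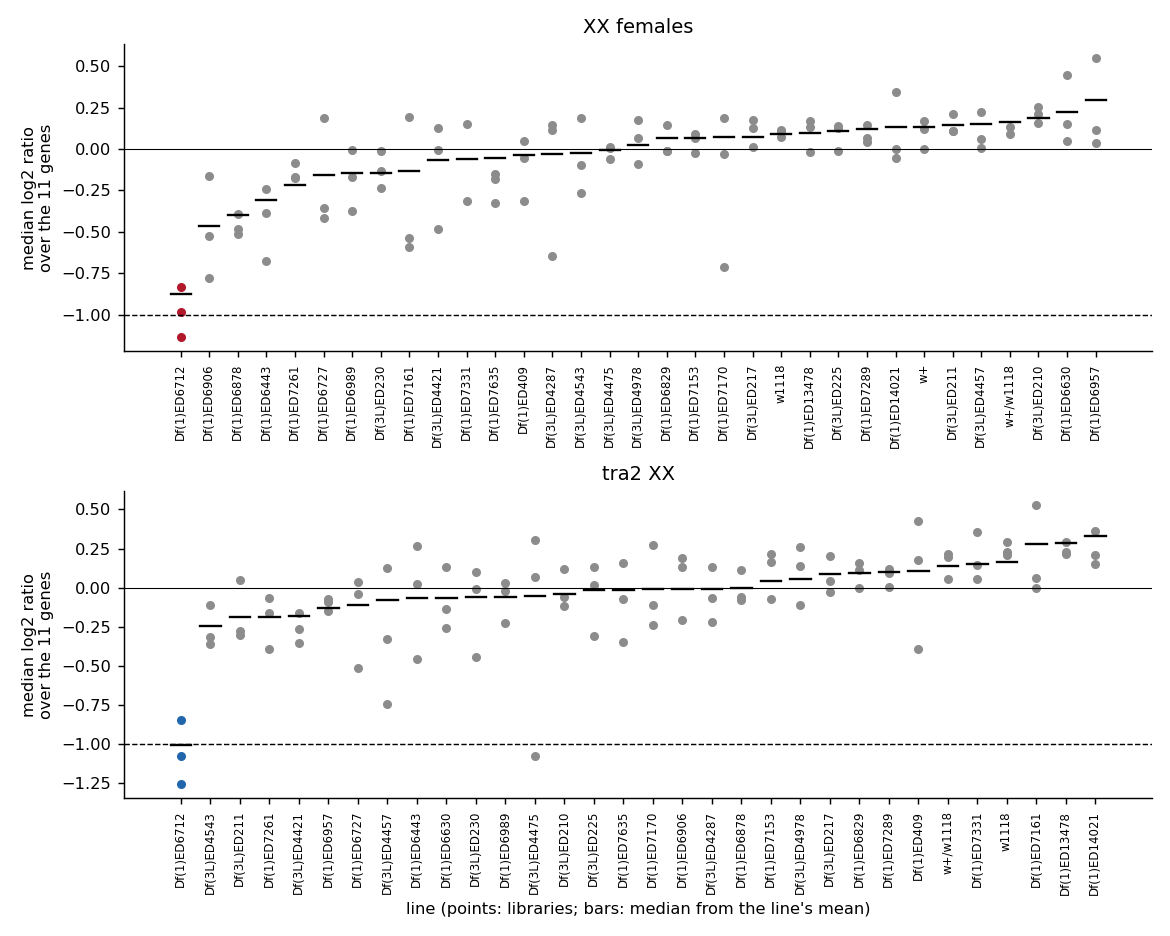
Median log2 ratio over the 11 genes of the run (y axis) for each library (points) and from each line's mean (bars), with Df(1)ED6712 at the left and the other lines sorted by their median, in XX females (top) and tra2 XX (bottom). The bar of Df(1)ED6712 is at -0.87 and -1.01, below every other line's bar.

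The genes were tested in a single edgeR quasi-likelihood fit of all 193 libraries, with the other lines of a group as 1 mean. The spread thus includes that between lines, but the libraries of a line were counted as separate samples. The p-values therefore do not fully allow for differences between stocks. P-values were adjusted by Benjamini-Hochberg over 10423 genes. In XX females, 5 of 11 genes of the run fell (CG10802, Rala, CG10804, CG10803 and Parg), where 0.048% of all genes were called lower. In tra2 XX, 3 of 11 fell (CG10802, Rala and CG10804), where 0.0288% were called lower. These were all the genes of the genome that were called lower in either group. Of the 11, 9 in XX females and 10 in tra2 XX had an unadjusted p under 0.05, all lower. Of all genes, 4.28% and 1.28% were lower at that p. The 11 were chosen for low ratios in these libraries, so the shares are no independent comparison. Apart from that of CG10802, each XX call was lost without some single library. With XX replicate 1 left out, CG10802 was the only gene of the run still called in XX females. Without XX replicate 2 there were 3 calls (CG10802, Rala and CG10803), and without XX replicate 3 also 3 (CG10802, Rala and CG10804). Leaving out any tra2 XX replicate gave 3 calls in tra2 XX. The p-values measure the spread between these libraries, which the study describes as biological triplicates.

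CG10802 gave the clearest difference of the run. Its normalized read counts were 60.5, 64.8 and 38.3 in Df(1)ED6712 XX females, against 88.2 to 214 with a median of 131 in the other lines. In Df(1)ED6712 tra2 XX they were 66.6, 95.3 and 65.7, against 102 to 285 with a median of 157 in the other lines. No other library of either group reached down to the Df(1)ED6712 values, which held for 0.0192% of all genes in XX females and 0.0192% in tra2 XX. The log2 fold change was -1.25 ± 0.17 (SE) in XX females (edgeR, adjusted p = 2.05e-08). In tra2 XX it was -1.06 ± 0.17 (edgeR, adjusted p = 1.93e-05). Behind the lowest of these values, XX replicate 3, stood 18 reads.

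Rala, at the right end, encodes a small GTPase of the Ras superfamily that acts in vesicle traffic to the plasma membrane. It had 170, 243 and 181 normalized read counts in Df(1)ED6712 XX females, against 219 to 517 with a median of 358 in the other lines. Of the 94 other libraries, 3 were below the highest Df(1)ED6712 value. Among tra2 XX, the Df(1)ED6712 libraries had 168, 151 and 125, against 142 to 482 with a median of 305 in the other lines, and 2 of 93 lay below the highest. It fell by 0.85 ± 0.17 in XX females and by 1.05 ± 0.18 in tra2 XX on the log2 scale (edgeR, adjusted p = 0.00227 and 4.45e-05).

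CG10804, at the left end, had 207, 153 and 211 normalized read counts in Df(1)ED6712 XX females, against 173 to 528 with a median of 349 in the other lines. In Df(1)ED6712 tra2 XX the values were 177, 196 and 172, against 99.7 to 561 with a median of 390. Only 2 other XX libraries and 1 other tra2 XX library lay below the highest Df(1)ED6712 value of their group. The gene fell by 0.89 ± 0.19 in XX females and by 1.11 ± 0.19 in tra2 XX (edgeR, adjusted p = 0.00698 and 0.00013). CG10804, CG10802 and Rala had all 3 Df(1)ED6712 libraries under the 5th percentile of the other libraries in both groups, as did 0.048% of all genes, 5 in number.

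Parg encodes poly(ADP-ribose) glycohydrolase, which removes poly(ADP-ribose) chains from proteins. Its Df(1)ED6712 libraries had 49.8, 44.0 and 44.7 normalized read counts in XX females, the tightest set of the run, against 46.8 to 163 with a median of 79.6 in the other lines. It fell there by 0.82 ± 0.20 (edgeR, adjusted p = 0.0356), a call lost without any single XX replicate (adjusted p between 0.111 and 0.265). In tra2 XX the line had 45.2, 27.0 and 50.9, against 34.7 to 110.5 with a median of 70.2 in the other lines. The log2 fold change there was -0.75 ± 0.21 (edgeR, adjusted p = 0.309). Parg overlaps Ilp7 on the other strand, and whether the reads were counted by strand is not stated.

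CG10803 had 108, 120 and 59.6 normalized read counts in Df(1)ED6712 XX females, against 90.2 to 324 with a median of 214 in the other lines. The Df(1)ED6712 libraries of tra2 XX had 88.0, 73.9 and 56.3, against 55.7 to 250.0 with a median of 158. It fell by 1.06 ± 0.25 in XX females (edgeR, adjusted p = 0.0294). In tra2 XX the log2 fold change was -1.12 ± 0.27 (edgeR, adjusted p = 0.0993). The ranges met in both groups, with 7 other XX libraries and 6 other tra2 XX libraries below the highest Df(1)ED6712 value.

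CG14270 and AstA-R1 missed the threshold narrowly in XX females. CG14270 had 33.5, 39.6 and 46.8 normalized read counts in Df(1)ED6712 XX females, against 45.3 to 200.5 with a median of 77.5 in the other lines. Df(1)ED6712 tra2 XX had 29.7, 34.1 and 49.6, against 32.6 to 228 with a median of 76.0. Its log2 fold change was -1.05 ± 0.27 in XX females and -1.04 ± 0.27 in tra2 XX (edgeR, adjusted p = 0.0519 and 0.239). AstA-R1 is a G-protein-coupled receptor for the neuropeptide allatostatin A, which is known to curb feeding. It had 57.3, 44.6 and 29.8 in Df(1)ED6712 XX females, against 32.3 to 173 with a median of 98.6 in the other lines. The tra2 XX libraries of Df(1)ED6712 had 35.7, 32.7 and 25.5, against 28.5 to 129 with a median of 68.1. The log2 fold change was -1.06 ± 0.27 in XX females and -1.16 ± 0.29 in tra2 XX (edgeR, adjusted p = 0.0519 and 0.181).

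The other members varied more among the libraries or the lines. DIP-alpha is a cell-surface protein of the immunoglobulin superfamily that pairs with Dpr proteins when neurons choose their synaptic partners. It had 45.9, 37.7 and 40.4 normalized read counts in Df(1)ED6712 XX females, against 2.69 to 113.5 with a median of 66.9 in the other lines. In tra2 XX, the Df(1)ED6712 libraries had 39.3, 22.8 and 25.5, against 21.8 to 103 with a median of 53.9. The 3 XX values were close together, yet 28 of 94 other libraries were below the highest of them, and the log2 fold change was -0.62 ± 0.36 in XX females and -0.86 ± 0.39 in tra2 XX (edgeR, adjusted p = 0.613 and 1). DIP-alpha overlaps CG2875 on the same strand. The annotation also places lncRNA:CR44999 over CG10804, CG10802, CG14270, CG10803 and DIP-alpha. It shares the strand of CG10802 and CG10803 and is opposite to the other genes named. Its effect on their counts was not tested.

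CG2875 was the gene whose ratio differed most between the groups. It had 29.9, 42.1 and 27.7 normalized read counts in Df(1)ED6712 XX females, against 25.0 to 145 with a median of 60.8 in the other lines. In tra2 XX the line had 51.2, 24.2 and 34.8, against 25.0 to 102 with a median of 51.0. The first tra2 XX library was at the median of the other lines, the only member and group in which a Df(1)ED6712 library was not below it. Its log2 fold change was -0.95 ± 0.28 in XX females and -0.54 ± 0.28 in tra2 XX (edgeR, adjusted p = 0.153 and 1).

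Mnt is a transcriptional repressor that competes with Myc for their shared partner Max. It had the widest spread of the run, with 425, 594 and 168 normalized read counts in Df(1)ED6712 XX females, against 44.96 to 1190 with a median of 614 in the other lines. The Df(1)ED6712 libraries of tra2 XX had 193, 110 and 95.2, against 44.99 to 529 with a median of 248. Its log2 fold change was -0.58 ± 0.47 in XX females and -1.02 ± 0.51 in tra2 XX (edgeR, adjusted p = 0.750 and 1). Its neighbour lncRNA:CR45102 had 136, 157 and 95.8 in Df(1)ED6712 XX females, against 59.3 to 397 with a median of 268 in the other lines. Df(1)ED6712 tra2 XX had 106, 76.8 and 61.7, against 14.04 to 412 with a median of 154. The log2 fold change was -0.90 ± 0.43 in XX females and -0.999 ± 0.45 in tra2 XX (edgeR, adjusted p = 0.504 and 1). For both genes the Df(1)ED6712 values lay within the range of the other lines.

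**Figure D3:**
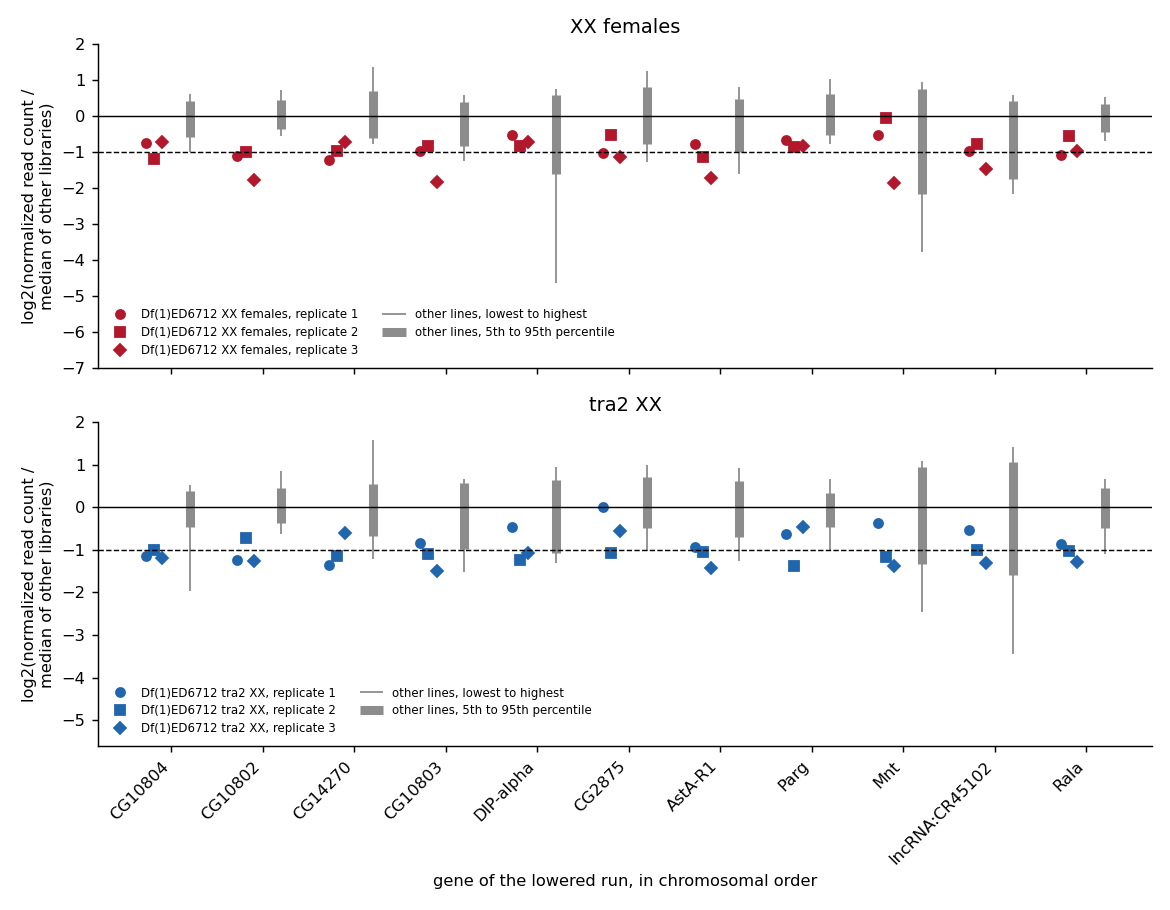
Log2 of each Df(1)ED6712 library over the median of the other libraries (y axis) for the 11 genes of the run in order (x axis), in XX females (top) and tra2 XX (bottom), beside the 5th to 95th percentile (thick bar) and full range (thin line) of the other libraries. CG10802 is the gene whose 3 symbols lie below the whole range in both panels, and the first tra2 XX replicate of CG2875 lies at 0.

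The annotation places 4 further genes of the count table inside the stretch, all under the cut-off, so that 11 of 15 had a ratio. They were Gas8, a gene of the motile cilium, CG13021, ppk8, which encodes a DEG/ENaC sodium channel subunit, and Ilp7, an insulin-like peptide. Reads of the Df(1)ED6712 libraries on these genes numbered between 0 and 8. For ppk8 there were 8, 4 and 0 reads in XX females and 0 in each tra2 XX library, and the other lines had medians of 3.89 and 2.82 normalized read counts. For ppk8, 78 of 93 other tra2 XX libraries were above 0, with an unadjusted p of 0.000858 in tra2 XX (edgeR, adjusted p = 0.497) and 0.248 in XX females (edgeR, adjusted p = 0.773). Gas8 had an unadjusted p of 0.290 in XX females and 0.0677 in tra2 XX, and CG13021 and Ilp7 had too few reads to be tested. Levels per gene length in the other lines ran from 1.37 FPKM for DIP-alpha to 38.9 FPKM for lncRNA:CR45102 in XX females.

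No gene of the run passed a test of the difference between the groups. A contrast of the effect in tra2 XX minus that in XX females called 0 of 11 genes, and 0 had an unadjusted p under 0.05. Its lowest unadjusted p was 0.274, for CG2875, where the log2 fold changes differed by 0.42 ± 0.38 (SE). The log2 ratios of a gene differed between the groups by a median of 0.19, from 0.01 to 0.40. Across the 11 genes the ratios of the groups had a Pearson r of 0.458 and a Spearman rho of 0.691, as a description only.

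XY males carry a lone X, so their level of these genes was set beside the hemizygous females. Of the 39 XY libraries, 33 carried a Df on 3L (11 lines), 3 were w1118 and 3 were w+, and none carried an X Df. Their median was above the mean of Df(1)ED6712 XX females for 11 of 11 genes. The genes were chosen for low values in the Df(1)ED6712 libraries, so this count was largely set by that choice. The share over all genes was not computed. Set against the other XX females, the XY medians had log2 ratios from -0.74 (CG2875) to 0.45 (CG10804), with a median of 0.06. CG10804 had a median of 478 normalized read counts in XY males, against a mean of 190 ± 32.0 (SD, n = 3) in Df(1)ED6712 XX females and a median of 349 in other XX females. For CG2875 the order was narrower, with 36.4 in XY males and 33.2 ± 7.78 (SD, n = 3) in Df(1)ED6712 XX females. Sex and X dose differ together in this comparison, and no test was made.

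Elsewhere in the genome, no gene was called in both groups against all other lines. Of 10412 genes outside the run, 0 were called in both XX females and tra2 XX by edgeR, and 0 by DESeq2. At an unadjusted p under 0.05 in both groups (edgeR), 31 of the 10412 genes differed in the same direction, 17 higher and 14 lower. Only 1 gene differed in opposite directions. No chance test of this overlap was made. XX females taken alone had 944 genes at that p. In tra2 XX alone 0 genes were called by edgeR and 2 by DESeq2, with 229 at an unadjusted p under 0.05. In XX females 12 genes were called higher and 0 lower by edgeR, 0.115% of the genes tested being higher. DESeq2 called 2 higher and 6 lower there, and edgeR against the other X deficiency lines alone called 6 higher and 4 lower. The contrast between the groups called 0 genes by edgeR and 0 by DESeq2, with 219 at an unadjusted p under 0.05.

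**Figure D4:**
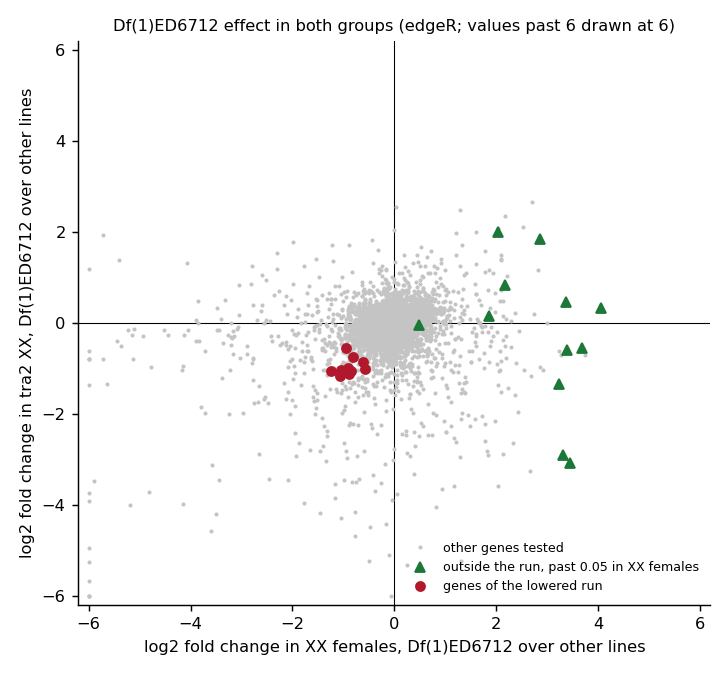
Log2 fold change of Df(1)ED6712 over the other lines in XX females (x axis) and tra2 XX (y axis) for the genes tested (grey), the 11 genes of the run (circles) and the 12 genes outside it that were called in XX females (triangles). The run lies low on both axes, whereas the triangles are spread over the tra2 XX axis.

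Each of the 12 calls in XX females was lost with at least 1 of the 3 XX replicates left out. Bace, an aspartic protease gene related to the secretase BACE, had 64.4, 0 and 0 normalized read counts in Df(1)ED6712 XX females, against 0 to 88.8 with a median of 0 in the other lines (edgeR, adjusted p = 2.88e-07). CG31343 had 58.0, 2.51 and 0, against 0 to 11.1 with a median of 1.58 (edgeR, adjusted p = 5.42e-09). Both were high in XX replicate 1 alone, and without it their log2 fold changes were -3.48 and -0.20. Sgs3, a glue protein gene of larval salivary glands, had 0, 34.6 and 0, against 0 to 32.6 with a median of 0 (edgeR, adjusted p = 0.0129), and without XX replicate 2 its log2 fold change was -3.45.

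The digestive proteases among them were highest in XX replicate 1, and their calls were lost without XX replicate 1. Jon65Aiii and Jon65Aiv, Jonah serine proteases of the gut, had 50.9, 28.3 and 0 and 60.9, 28.3 and 2.13 normalized read counts in Df(1)ED6712 XX females. Their calls were also lost without XX replicate 2 (edgeR, adjusted p = 0.144 and 0.0553). The trypsins alphaTry and betaTry had 43.1, 3.14 and 0 and 57.0, 6.92 and 0. All 4 had a median of 0 in the other XX lines, whose highest library reached 87.2, 48.1, 104 and 198. In Df(1)ED6712 tra2 XX the 4 genes had between 0 and 1.42. Of the 8 gut marker genes listed, 5 were tested, and 3 of them (alphaTry, betaTry and Jon65Aiii) were called higher in XX females. The summed level of the 8 was 430, 165 and 119 in Df(1)ED6712 XX females, against 61.5 to 1101 with a median of 134 in the other lines. In Df(1)ED6712 tra2 XX it was 394, 354 and 477, against 114 to 1649 with a median of 307, and 3 of the 8 genes were at 0 in all 3 of these libraries. The part of gut tissue in these calls was not tested.

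In the rest of the 12, all 3 XX libraries were above the median of the other lines. Cyp4e3, a cytochrome P450 gene, had 198, 119 and 138 normalized read counts in Df(1)ED6712 XX females, against 8.91 to 519 with a median of 27.8 in the other lines. It rose by 1.85 ± 0.42 on the log2 scale in XX females (edgeR, adjusted p = 0.0168, and 0.242 and 0.0570 without XX replicate 1 or 2). In tra2 XX it had 174, 183 and 174, against 42.7 to 337 with a median of 149, a log2 fold change of 0.16 ± 0.49 (edgeR, adjusted p = 1). Cog4, a subunit of the conserved oligomeric Golgi complex, had 200.1, 217 and 247 in Df(1)ED6712 XX females, against 101.4 to 241 with a median of 161. It rose by 0.47 ± 0.12 (edgeR, adjusted p = 0.0412), a call lost without any single XX replicate (edgeR, adjusted p between 0.0686 and 0.447). In tra2 XX its log2 fold change was -0.03 ± 0.13. CG4465 had 13.9, 14.5 and 6.38 in Df(1)ED6712 XX females, against 0 to 10.1 with a median of 1.81 (edgeR, adjusted p = 0.0168, and 0.178 and 0.350 without XX replicate 1 or 2).

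Obp56c and Lsp1gamma were high in both groups, and in tra2 XX they did not pass in the fit of all 193 libraries. Obp56c, an odorant-binding protein gene, had 14.2, 10.7 and 44.7 normalized read counts in Df(1)ED6712 XX females, against 0 to 23.7 with a median of 4.73 in the other lines. The tra2 XX libraries of Df(1)ED6712 had 23.8, 4.27 and 24.1, against 0 to 15.4 with a median of 3.34. The log2 fold change was 2.04 ± 0.50 in XX females and 2.01 ± 0.51 in tra2 XX (edgeR, adjusted p = 0.0412 and 0.181, and 0.0701 and 0.854 in XX females without XX replicate 1 or 3), and its line mean was the highest of all lines in both groups. Lsp1gamma, a larval serum protein gene of the fat body, had 14.95, 77.3 and 44.7 in Df(1)ED6712 XX females, against 0 to 64.9 with a median of 1.98. In tra2 XX, the Df(1)ED6712 libraries had 16.7, 42.7 and 9.38, against 0 to 53.0 with a median of 4.87. The log2 fold change was 2.87 ± 0.68 in XX females and 1.84 ± 0.81 in tra2 XX (edgeR, adjusted p = 0.0294 and 1, and 0.763 and 0.115 in XX females without XX replicate 2 or 3). The fat body marker list, summed, had 54519, 120482 and 69541 in Df(1)ED6712 XX females, against 4747 to 343028 with a median of 65418, and its part in the Lsp1gamma value was not tested.

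A fit with a mean for each line, in which the spread is that within lines only, called more genes, 439 higher and 79 lower outside the run in XX females and 18 higher and 3 lower in tra2 XX. The higher calls were 4.21% and 0.173% of all genes. Its calls do not allow for the difference between any pair of stocks. Of the run, whose genes were chosen for low ratios, this fit called 8 of 11 in XX females and 7 of 11 in tra2 XX. Of all genes, 0.835% and 0.0959% were called lower. In both groups it called 5 genes higher (Lsp1gamma, Obp56c, Boot, CG14221 and CG32444) and 2 lower outside the run (Vajk2 and CG18542), with 0.048% of all genes higher and 0.0863% lower in both.

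Of the higher genes, Boot was the one whose Df(1)ED6712 libraries lay apart from all others in tra2 XX. Boot had 20.2, 28.4 and 41.5 normalized read counts in Df(1)ED6712 tra2 XX, against 0 to 19.4 with a median of 6.25 in the other lines, so that no other library reached them. In XX females the Df(1)ED6712 libraries had 14.6, 83.6 and 4.26, against 0 to 113 with a median of 4.45. CG32444 had 4062, 2547 and 4226 in Df(1)ED6712 tra2 XX, against 134 to 3250 with a median of 1347, and 6 of the 93 other libraries lay above the lowest of the 3. Df(1)ED6712 XX females had 1639, 1451 and 766, against 165 to 1721 with a median of 608. CG14221, on X but outside the run, had 113, 88.2 and 92.5 in Df(1)ED6712 tra2 XX, against 7.65 to 102 with a median of 45.4. In XX females the Df(1)ED6712 libraries had 101.5, 140 and 160, against 11.1 to 266 with a median of 71.9.

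The lower pair were CG18542 and Vajk2. CG18542 had 86.9, 88.2 and 89.8 normalized read counts in Df(1)ED6712 tra2 XX, all under the 91.7 to 199 of the other lines, whose median was 129. Df(1)ED6712 XX females had 113, 106 and 117, against 89.8 to 212 with a median of 153. Vajk2 had 26.2, 22.8 and 20.1 in Df(1)ED6712 tra2 XX, against 14.3 to 157 with a median of 60.9, and 62.3, 56.6 and 111 in Df(1)ED6712 XX females, against 33.2 to 629 with a median of 159. In the edgeR fit of all 193 libraries with the other lines as 1 mean, Lsp1gamma and Obp56c passed in XX females and the other 5 in neither group. With tra2 XX fitted alone, Boot and Obp56c passed there (edgeR, adjusted p = 0.00017 and 0.0109), and without XX replicate 3 Boot passed in XX females (edgeR, adjusted p = 0.0404).

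**Figure D5:**
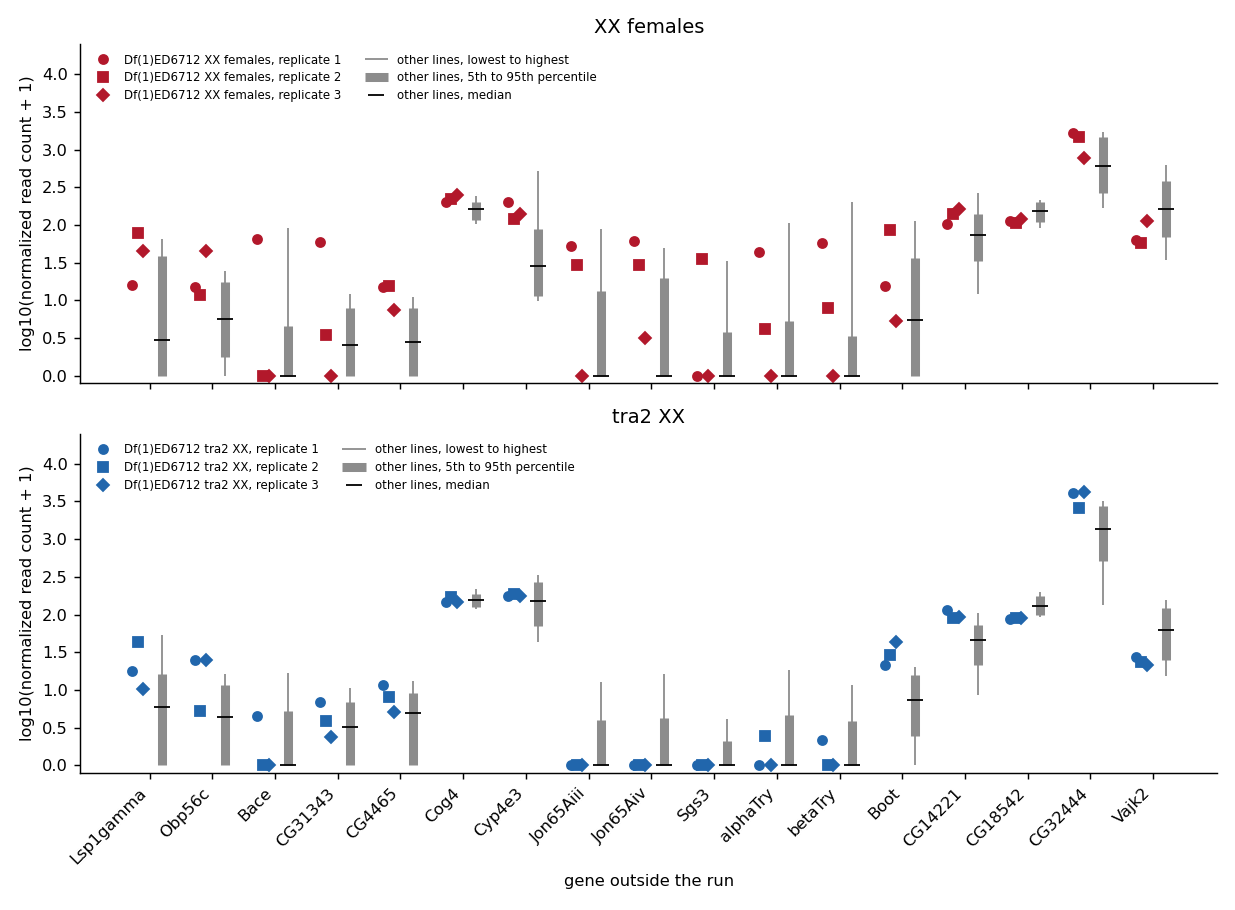
Normalized read counts (y axis, log10 of the value plus 1) of 17 genes outside the run (x axis), for the 3 Df(1)ED6712 libraries (symbols) beside the median, 5th to 95th percentile and range of the other libraries, in XX females (top) and tra2 XX (bottom). The Jonah and trypsin genes have their highest symbol at XX replicate 1 and lie at or near 0 in tra2 XX, whereas Boot and CG18542 lie outside the range of the other libraries in tra2 XX.

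All 3 Df(1)ED6712 libraries lay over the 95th percentile of the other libraries for 0.0384% of genes in XX females and 0.0672% in tra2 XX, and under the 5th for 0.192% and 0.115%. A pair of further genes, singled out after their values were seen, were under the 5th percentile in this way in both groups. lncRNA:CR40469, placed on X, had 88.3, 77.3 and 55.3 normalized read counts in Df(1)ED6712 XX females, against 74.4 to 1211 with a median of 276 in the other lines. In tra2 XX the line had 42.8, 52.6 and 56.3, against 31.8 to 561 with a median of 154. Its log2 fold change was -2.05 ± 0.59 in XX females and -2.01 ± 0.62 in tra2 XX (edgeR, adjusted p = 0.137 and 0.713). The gene listed as FBgn0085364, with no name or position in the annotation used, had 314, 235.1 and 206 in Df(1)ED6712 XX females, against 212 to 4258 with a median of 828. The Df(1)ED6712 libraries of tra2 XX had 158, 201 and 205, against 148 to 1999 with a median of 511. The mean of Df(1)ED6712 was the lowest of all lines for both genes in both groups, and neither passed the test.

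The roX RNAs, parts of the male-specific lethal complex, and w, which encodes the eye pigment transporter White, gave no call. lncRNA:roX1, which lies a few genes beyond the right end of the run, had 26.7, 38.4 and 6.38 normalized read counts in Df(1)ED6712 XX females, against 7.10 to 1275 with a median of 31.0. Df(1)ED6712 tra2 XX had 11.9, 15.6 and 16.1, against 0 to 626 with a median of 21.5. Its log2 fold change was -1.52 ± 1.11 in XX females and -1.68 ± 1.27 in tra2 XX (edgeR, adjusted p = 0.710 and 1). Against the median of the other libraries, the log2 ratio of lncRNA:roX1 was smaller, -0.38 in XX females and -0.56 in tra2 XX. lncRNA:roX2 had 6.05, 4.401 and 0 in Df(1)ED6712 XX females, against 0 to 28.5 with a median of 4.60 in the other lines, and 2.38, 2.84 and 1.34 in Df(1)ED6712 tra2 XX, against 0 to 20.7 with a median of 1.33. The w gene had 506, 506 and 579 in Df(1)ED6712 XX females, against 0.471 to 5440 with a median of 389, and 1197, 1209 and 1011 in Df(1)ED6712 tra2 XX, against 0 to 11035 with a median of 1466.

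Of 16 gene lists for tissues and pathways, the gut list alone held a called gene. The male reproductive tract list could not hold one, since 0 of its 10 genes were tested. Of 15 genes of the nucleolus and ribosome biogenesis, 0 were called in either group by edgeR, and 7 had an unadjusted p under 0.05 in XX females, all higher, and 0 in tra2 XX, where 4.86% and 1.02% of all genes were higher at that p. Their median log2 fold change was 0.41 in XX females and 0.17 in tra2 XX, beside -0.02 and -0.02 over all genes tested. Their summed level was 4160, 6104 and 5957 normalized read counts in Df(1)ED6712 XX females, against 2693 to 8835 with a median of 4053. Neuron markers had a median log2 fold change of -0.13 in XX females and -0.17 in tra2 XX, with 0 of 8 called, and glia markers 0.13 and 0.07, with 0 of 8 called. The 12 antimicrobial peptide genes had -1.75 in XX females and 0.29 in tra2 XX, with 0 called and 0 at an unadjusted p under 0.05.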

How the data were processed

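Libraries were analysed as labelled, 6 of Df(1)ED6712 and 187 of other lines in XX and tra2 XX, with 39 XY libraries beside them. The authors mapped single-end reads to FlyBase release 5 with TopHat2 2.0.10 and deposited raw read counts per gene (HTSeq 0.5.4p1). They also deposited normalized read counts, a signal made by dividing by a DESeq2 1.6.3 size factor per library, and FPKM from Cufflinks 2.1.1. The counting options are not given in the sources used here. Reads naming no gene (7.12%) and spike-ins (1.19%) were left out. Names and gene order came from BDGP6, which held 16815 of 17142 genes, and no coordinates are printed because its build is not that of the authors.

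Ratios and the run were computed in Python 3.11.15 (pandas 2.3.3) from normalized read counts. Raw counts were tested with edgeR 4.0.16 in R 4.3.3 (TMM, filterByExpr, quasi-likelihood, 4 means for 193 libraries, Benjamini-Hochberg, threshold 0.05). Standard errors were derived from the fold change and its F statistic. Scripts were tested on simulated data. The alternatives were DESeq2 1.42.0, RLE, no filter, a mean for each line, references without a deficiency or of other X deficiencies, each group alone, the replicate number as a block, each Df(1)ED6712 replicate left out, and, for the run, FPKM, TMM, a pseudocount of 1, and a cut-off of 50 or none.

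The members, lists and tests were chosen with earlier results of these data known. The genes named are all members, the 3 measured genes at each end, genes called in both groups, list genes called in either group, and roX1, roX2 and w. Since none was called in both, genes called in XX females and those called in both groups by line means were named after their values were seen. No sequencing batch is labelled, so none was tested. With 3 libraries a group, depth limits genes of few reads.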

Additional observations from a re-analysis of the deposited data

How the results depend on the processing

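In the 13 alternatives the run was 11 genes long, or 14 with no cut-off. This compares the length of the run and not the names of its genes. Of 308 alternative values for its members, 265 kept direction and side of the threshold, 9 lost the call, 34 gained it and 0 reversed. The median log2 ratio moved to -0.72 with FPKM in XX females, and to -1.04 in XX females and -1.22 in tra2 XX with lines without a deficiency as reference. With a replicate left out it ranged from -1.05 (without XX replicate 2) to -0.84 in XX females and from -1.15 to -0.94 in tra2 XX. Members called ranged from 1 to 10 in XX females and from 3 to 10 in tra2 XX, with 10 in each against lines without a deficiency, where 15.2% and 12.2% of all genes were called lower.

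Outside the run, the 12 calls in XX females became 78 without a filter, 518 with a mean for each line, 3159 against lines without a deficiency and 1 with each group fitted alone, and ranged from 14 to 29 with a replicate left out. Leaving out XX replicate 1 or 2 gave 14, XX replicate 3 gave 27, and a tra2 XX replicate gave 28 or 29, the last of 10638 or 10639 genes tested outside the run in place of 10412. The 0 calls in tra2 XX became 2 without a filter, 21 with a mean for each line, 2534 against lines without a deficiency, 3 against other X deficiencies, 4 with each group fitted alone and 2 with DESeq2. The 0 calls for the difference became 2 without a filter, 2 with a mean for each line (Cyp4e3 and CG14715), and 0 to 2 with a replicate left out (2 without XX replicate 2 or XX replicate 3). The 0 calls in both groups became 7 with a mean for each line and 1427 against lines without a deficiency. The causes were not tested. Of the genes called in XX females, Bace and CG31343 reversed without XX replicate 1 and Sgs3 without XX replicate 2, and with a replicate left out the log2 fold change of Bace lay between -3.48 and 4.62, that of CG31343 between -0.20 and 3.88, and that of Sgs3 between -3.45 and 3.83. Higher and lower calls in XX females were 12 and 0, against 11 and 1 with RLE, 2 and 6 with DESeq2 and 6 and 4 against other X deficiencies.

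With the replicate number as a block, 14 genes outside the run and 6 members were called in XX females, 0 and 3 in tra2 XX, and 0 in both groups. The numbers pair no samples by label, and the deviations of same-numbered libraries correlated from -0.21 to 0.45. In XX females, replicates 1 and 2 of Df(1)ED6712 correlated at 0.45 and 0.38 with the same number in other lines. Replicate 1 against number 2 gave -0.51, and replicate 2 against number 1 gave -0.50. In tra2 XX the same-numbered values were 0.04, -0.03 and 0.14. The source of this pattern was not tested.

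The least deep XX library of the line, replicate 3, had 3765487 reads and as few as 13 on a member, so its ratios are the least precise.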
